A study of Gossypium hirsutum with 12 samples.

Results

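The change that water stress made in the root transcriptome of cotton (Gossypium hirsutum) after 48 h was compared, gene by gene, with the change it made after 24 h. The value for each gene is a difference of stress effects, (WS48 minus WW48) minus (WS24 minus WW24) on the log2 scale, so a positive value means a larger rise or a smaller fall under stress at 48 h than at 24 h. Errors given with ± beside such differences are standard errors. All 12 libraries of the series entered it, 3 in each of 4 groups. WS48 and WS24 libraries were made from the apical 6 mm of primary roots held in vermiculite at −1 MPa for 48 h and 24 h. WW48 and WW24 libraries were made from the apical 12 mm of roots held at −0.02 MPa for the same times. All were dark-grown seedlings of cv. AU90810, many tips were combined in each library, and the study describes its replicates as independent experiments. Because stressed and well-watered tips were cut at different lengths, the effect of stress and that of tissue makeup cannot be told apart, at either time or in their difference. In such bulk samples, fewer cells of a type and less RNA per cell cannot be told apart either.

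In roots kept at low water potential the elongation zone shortens toward the apex, and genes of abscisic acid (ABA) synthesis, osmoprotection and cell wall loosening are among those that respond. A response can be early and fade, build up late, or be held. A difference of stress effects separates these cases, but it draws on 4 groups, so it carries more error than a single contrast and moves with any of them. It also counts changes with time in well-watered roots as fully as changes with time in stressed roots.

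Gene counts were 9190346 to 10617773 in WS48, 6433993 to 11142643 in WW48, 9632614 to 10415489 in WS24 and 8132845 to 11316010 in WW24. WW24 replicate 2 stood apart from its group. Its log2 levels differed from WW24 replicates 1 and 3 by root mean squares of 1.01 and 0.886, whereas those 2 differed by 0.447 and replicate pairs of the other groups by 0.396 to 0.608. Every result was therefore fitted with all 12 libraries and again with the 11 left without WW24 replicate 2. In this library the 12 xylem marker genes summed to 1051 CPM (gene counts scaled to a common library total, with TMM factors between libraries), against 255 and 353 CPM in WW24 replicates 1 and 3, and the 5 root hair markers to 606 CPM, against 194 and 233 CPM. The xylem sum was 99.2 to 165 CPM in WS48, 773 to 1459 CPM in WW48 and 41.3 to 57.4 CPM in WS24. No xylem marker was called in either fit, and their median difference of stress effect was 0.0004 without WW24 replicate 2 and 0.95 with it; what part tissue makeup has in the results was not tested.

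With all 12 libraries, edgeR called 0 of 43938 genes (0%) for a difference of stress effect, where called means an adjusted p of at most 0.05 and a log2 difference of at least 1 in size. The lowest adjusted p was 0.0664. At an unadjusted p under 0.05, 2380 genes (5.42%) were positive and 2780 (6.33%) negative. DESeq2 called 192 positive and 211 negative on the same 12 libraries, and limma-voom called 0. Without WW24 replicate 2, edgeR called 598 of 45141 genes positive (1.32%) and 1059 negative (2.35%), and the median standard error of the difference was 0.305 on the log2 scale, against 0.366 with all libraries. When library totals alone set the scale, the split without that library was 413 positive and 1213 negative.

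**Figure D1:**
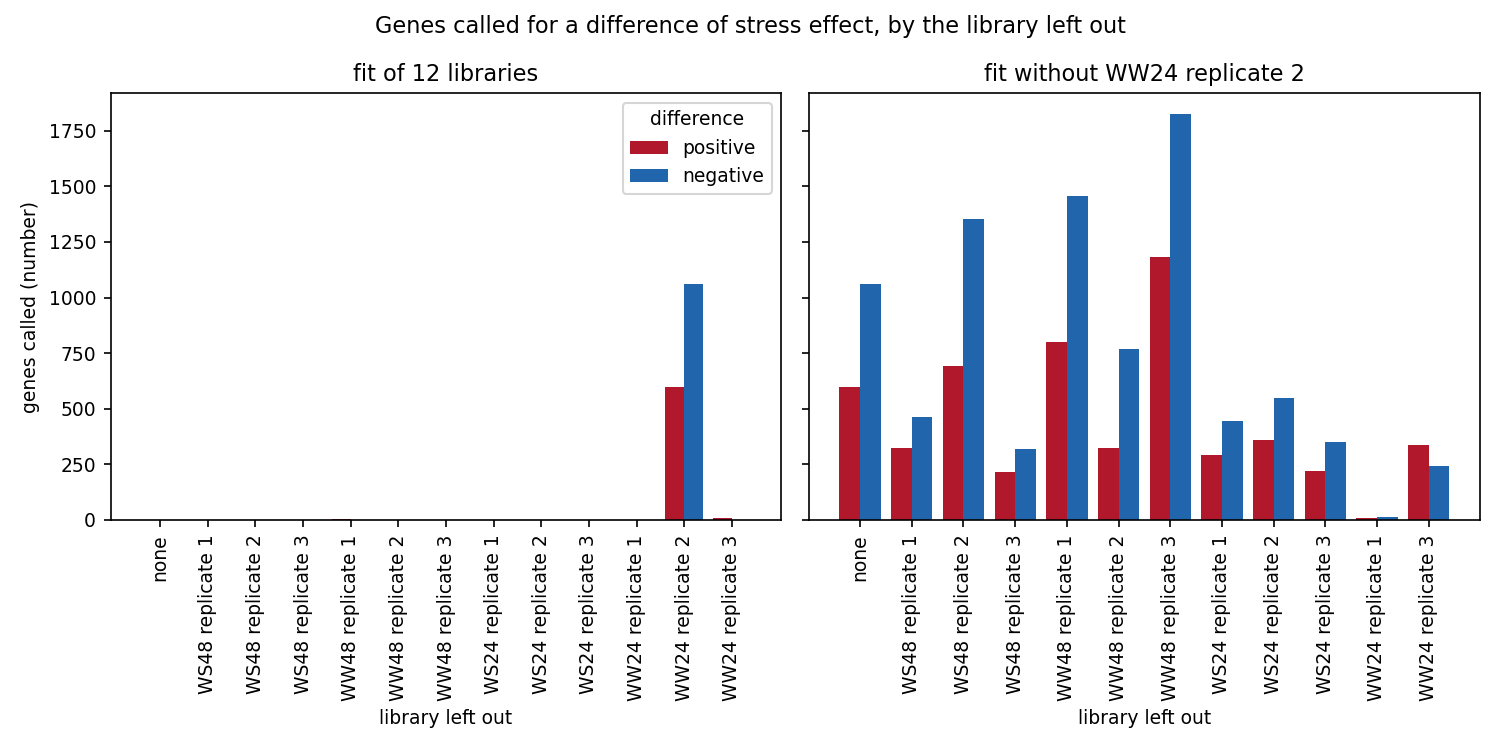
Number of genes (y axis) that edgeR called for a positive (red) or negative (blue) difference of stress effect when each library on the x axis was left out in turn, for the fit of 12 libraries (left) and the fit without WW24 replicate 2 (right). On the left, only leaving out WW24 replicate 2 gave more than 8 calls in a direction (598 positive, 1059 negative); on the right, counts ran from 10 to 1183 positive and from 11 to 1826 negative.

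These calls rested on few libraries. With WW24 replicate 2 out, leaving out WW24 replicate 1 as well left 10 positive and 11 negative calls, and leaving out WW24 replicate 3 left 337 and 241. Leaving out WS48 replicate 1 gave 323 and 463, WS48 replicate 3 gave 217 and 321, WS24 replicate 1 gave 294 and 443, WS24 replicate 2 gave 360 and 550, WS24 replicate 3 gave 221 and 352, and WW48 replicate 2 gave 324 and 767. More were called without WW48 replicate 3 (1183 and 1826). Of 50 genes named here that were called without WW24 replicate 2, 43 lost the call when WW24 replicate 1 was also left out, which leaves 1 library in that group (adjusted p 0.054 to 0.206, edgeR), 19 without WW24 replicate 3, 17 without WS48 replicate 3, 16 without WS24 replicate 1, 16 without WS24 replicate 3, 13 without WS48 replicate 1 and 10 without WS24 replicate 2. For 20 genes WW24 replicate 1 was the only further library whose removal ended the call, and 7 genes were called whichever further library was left out: Gh_A11G0236, Gh_A11G1551, Gh_D11G1706, Gh_D05G3116, Gh_A06G0716, Gh_D06G0280 and Gh_A06G1899.

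Single contrasts of stress against control gave many more calls. WS48/WW48 had 1397 genes higher (3.18%) and 2628 lower (5.98%) with all libraries, and 1814 (4.02%) and 3650 (8.09%) without WW24 replicate 2. WS24/WW24 had 1647 higher (3.75%) and 2165 lower (4.93%) with all libraries, and 2110 (4.67%) and 1585 (3.51%) without that library. Genes with opposite calls in these contrasts were rare: without WW24 replicate 2, 21 genes were lower in WS48 and higher in WS24, and 3 were higher in WS48 and lower in WS24, among 45141. With all libraries these numbers were 2 and 1. Of the 598 genes with a positive difference 353 were called for stress at neither time, and of the 1059 with a negative difference 279, beside 37968 of all 45141 genes tested. The median log2 stress effect was 0.46 at 48 h and -0.75 at 24 h in the positive genes, and -0.95 at 48 h and 0.68 at 24 h in the negative genes; the difference chose these genes, so the medians only describe them.

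**Figure D2:**
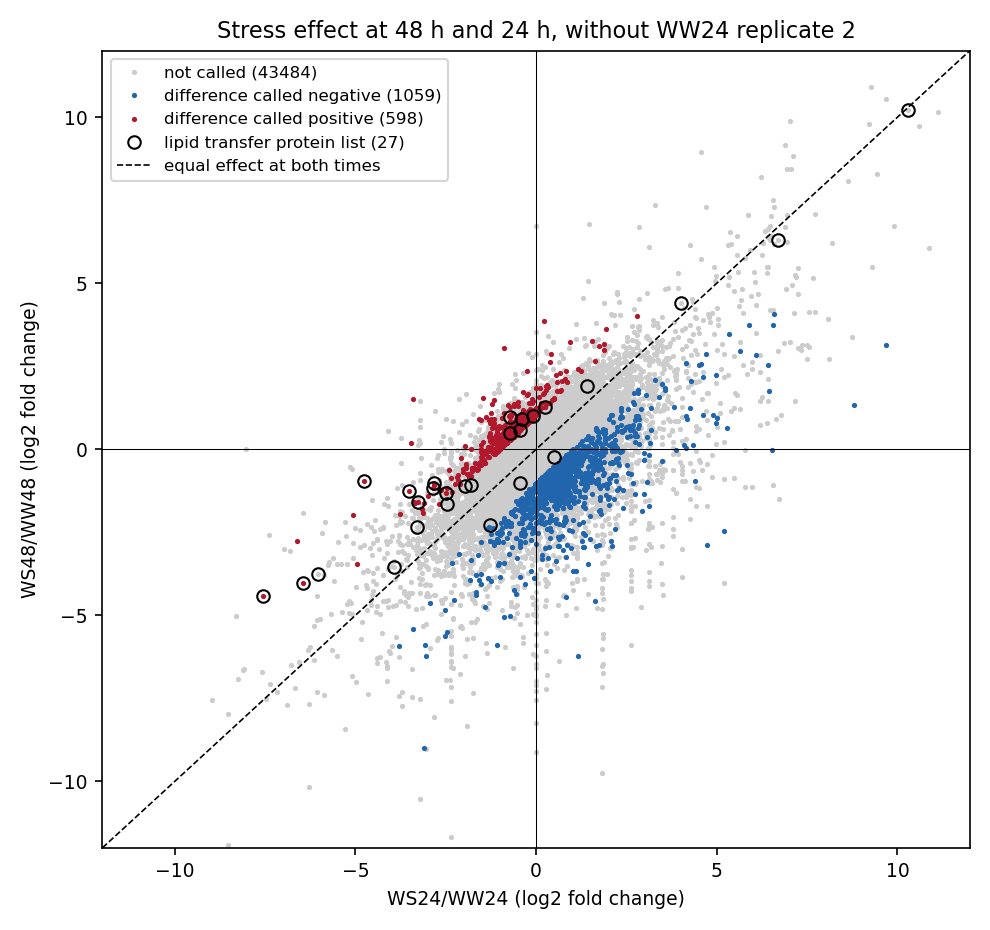
Stress effect at 48 h (WS48/WW48, y axis) against stress effect at 24 h (WS24/WW24, x axis), both log2 fold changes from the fit without WW24 replicate 2, for 45141 genes, with 2 of them outside the frame. Called genes lie off the dashed line of equal effect, 598 above it (red) and 1059 below it (blue); circles mark the 27 tested lipid transfer protein genes, and the streaks of points at fixed x values are genes with few or no reads at 24 h, whose fitted values depend on the prior count.

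Much of the difference in the called genes lay in well-watered roots. Among the 1059 genes called negative, the median WS48/WS24 change was −0.15 and the median WW48/WW24 change 1.5 on the log2 scale, and 789 were called higher in WW48 than in WW24, against 65 called lower in WS48 than in WS24. Among the 598 called positive the medians were 0.47 in stressed and −0.74 in well-watered roots, with 44 called higher in WS48 than in WS24 and 140 called lower in WW48 than in WW24. Among all 45141 genes tested, 4359 were called higher and 840 lower in WW48 than in WW24. In WS48 against WS24 these numbers were 832 and 382. The difference that chose the called genes contains both changes with time, so their counts only describe them. WW24 replicate 2 lay nearer to the WW48 mean than to the mean of WW24 replicates 1 and 3 in 777 of 1056 genes called negative and in 438 of 597 called positive on the log2 scale. These shares were 73.6% and 73.4%, beside 61% of all 43938 genes compared. WW24 replicates 1 and 3 helped choose the called genes, which can move their mean away from WW48. The larger shares are therefore not independent evidence.

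Lipid transfer proteins held more positive calls than any other list without WW24 replicate 2. These are small, cysteine-rich, mostly secreted proteins that bind lipids, and members of the family are known for cuticle and suberin deposition, wall extension and defence. Their list held 29 genes of the bifunctional inhibitor, lipid transfer protein and seed storage 2S albumin superfamily, of which 27 were tested. Without WW24 replicate 2, 14 of the 27 were called positive (51.9%) and 0 negative. Positive calls made up 1.32% of all genes tested and 2.83% of genes with a function. The list median was 1.05, beside −0.04 for all genes tested. With all 12 libraries none was called. At an unadjusted p under 0.05, 15 of the 27 were positive and 0 negative, beside 5.42% positive among all genes. The median was then 0.93, beside 0.01 for all genes. The study had picked 19 of the 29 for a change in WS48 against both WW48 and WW24 in these libraries. Neither their stress effect at 48 h nor their WW24 levels are therefore independent evidence.

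The calls were concentrated in runs of neighbouring gene IDs on 2 homoeologous chromosomes, A11 and D11 of the A and D subgenomes. On A11, 6 members lie between Gh_A11G0233 and Gh_A11G0239, and all 6 were called, with differences of 1.05 to 3.14. On D11, 8 members lie between Gh_D11G0247 and Gh_D11G0254, 7 were tested and all 7 were called, with differences of 1.02 to 3.79. Of the 14 tested members elsewhere, 1 was called, Gh_D13G1963, and their median was 0.45. The edges of the runs depend on which IDs have a function from the study. Of 23 IDs without a function within or close to the runs, 13 were tested and 0 called. Beside 1.32% positive calls among all genes, that is no result about them. Genes within a run and between the subgenomes may be near-identical, so how reads were split among them is uncertain and they are not independent points.

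Gh_A11G0236 had the lowest adjusted p of the list. At 48 h it had 11.3, 13.1 and 9.32 CPM in WS48 libraries, against 328, 176 and 228 CPM in WW48 libraries. At 24 h the values were 1.78, 1.63 and 1.02 CPM in WS24 libraries, against 286, 505 and 281 CPM in WW24 libraries. No stressed library reached a well-watered one, and every WS48 library was above every WS24 library. Its log2 stress effect was -4.41 at 48 h and -7.55 at 24 h, and the difference was 3.14 ± 0.38 without WW24 replicate 2 (adjusted p = 0.00462) and 3.47 ± 0.45 with all 12 libraries (adjusted p = 0.0664). Its D11 counterpart in pattern, Gh_D11G0251, had 10.4, 8.4 and 9.74 CPM in WS48 libraries, against 216, 114 and 144 CPM in WW48 libraries. At 24 h the levels were 0.747, 0.958 and 0.914 CPM in WS24 libraries, against 91.8, 94.5 and 65.1 CPM in WW24 libraries, and again the groups did not overlap. Its difference was 2.42 ± 0.43 without WW24 replicate 2 (adjusted p = 0.0137) and 2.51 ± 0.38 with all 12 libraries (adjusted p = 0.0664).

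Another 4 members also had their lowest levels in WS24 and the next lowest in WS48, with more reads under stress. Gh_A11G0237 had 86.5, 61.5 and 79.6 CPM in WS48 libraries, against 196, 125 and 196 CPM in WW48 libraries, and at 24 h 20.6, 19.2 and 19.8 CPM in WS24 libraries, against 156, 203 and 133 CPM in WW24 libraries. Gh_D11G0252 had 95.4, 75.8 and 92.5 CPM in WS48 libraries, against 252, 142 and 246 CPM in WW48 libraries, and at 24 h 17.8, 23.7 and 24.3 CPM in WS24 libraries, against 294, 229 and 213 CPM in WW24 libraries. In both genes the WS24 libraries were the lowest of all and the WS48 libraries lay between them and the well-watered ones. Gh_A11G0239 had 115, 105 and 103 CPM in WS48 libraries, against 397, 240.2 and 349 CPM in WW48 libraries, and at 24 h 59.3, 73.2 and 67.5 CPM in WS24 libraries, against 699, 652 and 589 CPM in WW24 libraries. Gh_D11G0254 had 179, 137 and 164 CPM in WS48 libraries, against 381, 249 and 363 CPM in WW48 libraries, and at 24 h 60.0, 92.9 and 81.8 CPM in WS24 libraries, against 585, 657 and 544 CPM in WW24 libraries. In this second pair both sides moved, WS48 above WS24 and WW48 below WW24. The differences of these 4 genes were 1.68, 2.25, 1.67 and 1.81 without WW24 replicate 2 (adjusted p 0.00803 to 0.0107) and 1.86, 2.2, 1.67 and 1.88 with all libraries (adjusted p 0.0664 to 0.072).

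**Figure D3:**
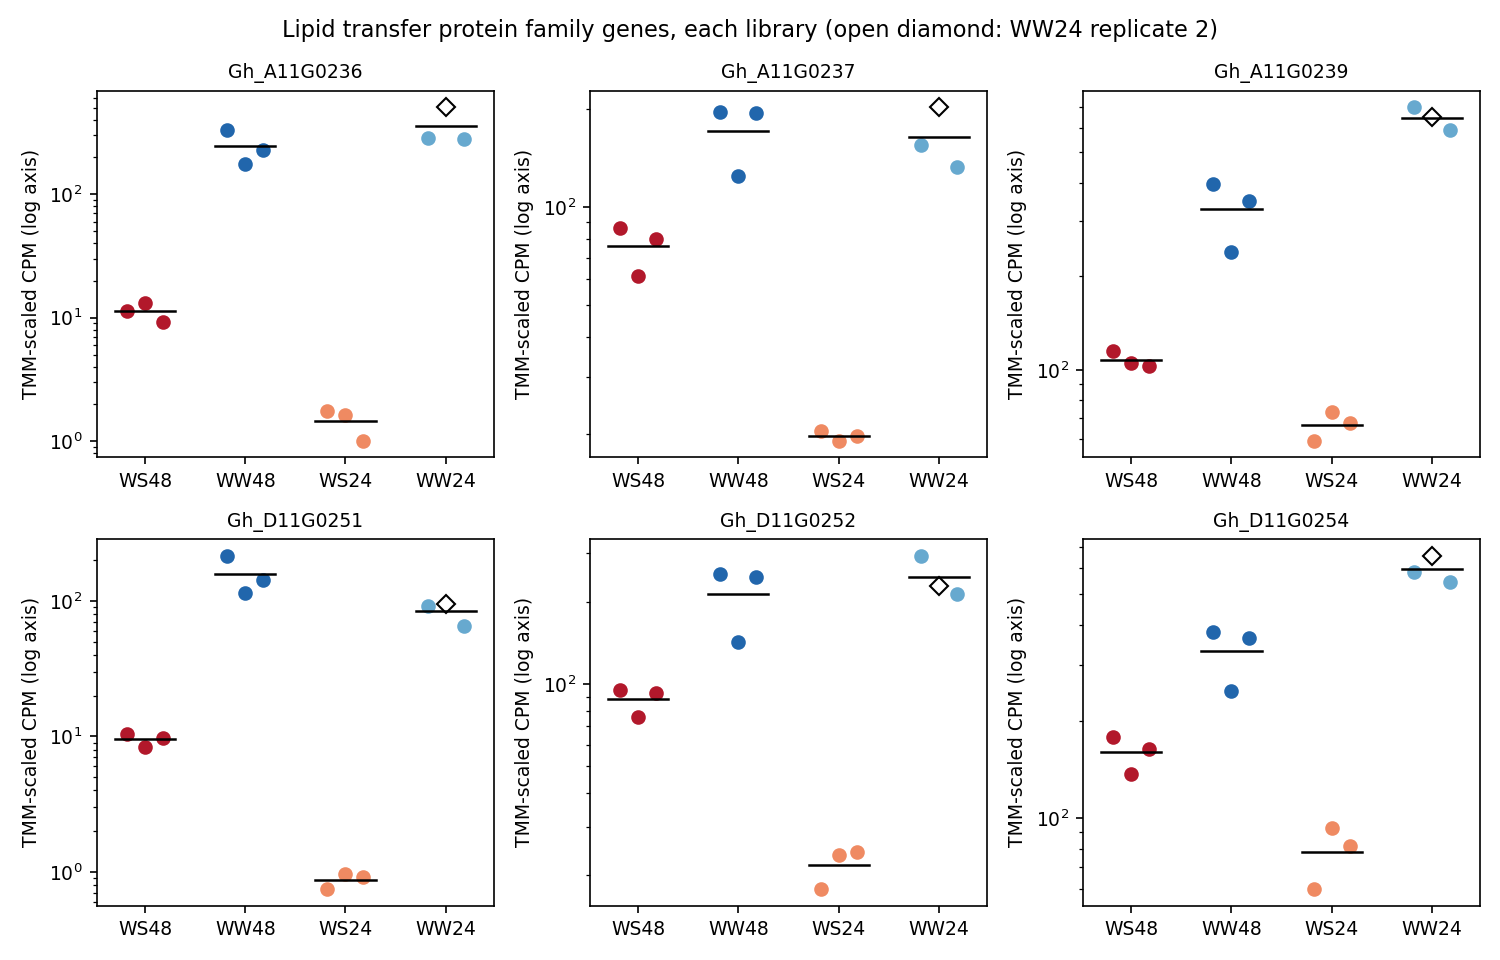
Level of 6 lipid transfer protein genes in each library (y axis, TMM-scaled CPM, log axis) in WS48, WW48, WS24 and WW24, with the mean of 3 libraries as a bar and WW24 replicate 2 as an open diamond. Stressed libraries lie below well-watered ones at both times, and WS48 lies above WS24 in every panel, as in Gh_A11G0236 (9.32 to 13.1 CPM in WS48, against 1.02 to 1.78 CPM in WS24).

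Gh_D11G0250, with fewer reads, also had its lowest levels in WS24, with 13.3, 6.62 and 11.1 CPM in WS48 libraries, against 27.3, 14.2 and 19.4 CPM in WW48 libraries, and at 24 h 0.747, 0.287 and 0.305 CPM in WS24 libraries, against 20.5, 6.48 and 5.24 CPM in WW24 libraries. Its WS24 libraries held few reads, and its difference was 3.79 ± 0.81 without WW24 replicate 2 (adjusted p = 0.0223) and 3.55 ± 0.82 with all 12 libraries (adjusted p = 0.152).

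The other 6 called members of the runs had another pattern, with their lowest mean level in WW48. Gh_A11G0233 had 1230, 953 and 1075 CPM in WS48 libraries, against 623, 409 and 605 CPM in WW48 libraries. The 24 h levels were 1111, 1323 and 1172 CPM in WS24 libraries, against 1349, 1096 and 1229 CPM in WW24 libraries. Its WW48 libraries lay below all 9 others. Gh_D11G0247 likewise had 862, 697 and 799 CPM in WS48 libraries, against 355, 266 and 376 CPM in WW48 libraries, and at 24 h 829, 981 and 853 CPM in WS24 libraries, against 815, 526 and 701 CPM in WW24 libraries. Gh_A11G0234, Gh_A11G0235, Gh_D11G0248 and Gh_D11G0249 had differences of 1.05, 1.71, 1.2 and 1.32 without WW24 replicate 2, with stress effects of 0.48 to 0.99 at 48 h and −0.72 to −0.39 at 24 h on the log2 scale, none of them called. Gh_A11G0232 and Gh_D11G0246, which border the runs and have no function from the study, also had their lowest mean level in WW48. Their differences, 0.71 and 0.60 without WW24 replicate 2, were not called.

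The count of 14 calls fell to 1 without WW24 replicate 1, 9 without WS24 replicate 1, 9 without WS24 replicate 3, 8 without WS48 replicate 1 and 8 without WS48 replicate 3. The count of 15 at an unadjusted p with all libraries was 14 to 16 under every other setting. With WW24 replicate 2 standing alone for WW24, an alternative added after seeing the data in which that single library is assumed to vary like the others, Gh_A11G0236 had a difference of 3.98, Gh_D11G0251 of 2.7 and Gh_A11G0233 of 0.88. In that setting the called run members with their lowest mean level in WW48 ranged from 0.50 (Gh_D11G0247) to 1.02 (Gh_D11G0249).

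A pair of methylenetetrahydrofolate reductase genes, on A11 and D11 by their IDs, was called positive. This enzyme makes the methyl-folate that supplies the methyl group of methionine. Gh_A11G1551 had 105, 89.3 and 86.8 CPM in WS48 libraries, against 323, 266 and 287 CPM in WW48 libraries. After 24 h there were 37.5, 35.3 and 43.3 CPM in WS24 libraries, against 452, 459.9 and 343 CPM in WW24 libraries. The 4 groups did not overlap, with WS24 lowest and WW24 highest. Its difference was 1.73 ± 0.21 without WW24 replicate 2 (adjusted p = 0.00462) and 1.79 ± 0.22 with all 12 libraries (adjusted p = 0.0664). The D11 gene, Gh_D11G1706, had 71.5, 72.6 and 70.8 CPM in WS48 libraries, against 271, 238 and 250.1 CPM in WW48 libraries, and at 24 h 34.5, 33.6 and 31.4 CPM in WS24 libraries, against 344, 317 and 254 CPM in WW24 libraries, and its difference was 1.36 ± 0.18 (adjusted p = 0.00729) without WW24 replicate 2. Both stood in a list built by word for ethylene synthesis and response, because their name holds the letters of that word. They were its only calls among 12 members.

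Other genes called positive were also lowered by stress, and lowered more at 24 h. Arabinogalactan protein 20 (Gh_A11G0857), a short proteoglycan of the cell surface, had 15.9, 14.1 and 14.8 CPM in WS48 libraries, against 40.5, 29.9 and 36.3 CPM in WW48 libraries. The corresponding 24 h values were 8.78, 9.67 and 10.6 CPM in WS24 libraries, against 68.5, 84.5 and 53.5 CPM in WW24 libraries, and its difference was 1.41 ± 0.22 without WW24 replicate 2 (adjusted p = 0.00999) and 1.58 ± 0.25 with all 12 libraries (adjusted p = 0.072). A glycosyltransferase of small molecules, a UDP-glucosyl transferase (Gh_A07G0920), had 2.69, 2.86 and 2.75 CPM in WS48 libraries, against 32.9, 25.5 and 33.2 CPM in WW48 libraries. In 24 h roots it had 1.12, 1.72 and 1.32 CPM in WS24 libraries, against 48.4, 53.2 and 39.4 CPM in WW24 libraries, and its difference was 1.52 ± 0.28 without WW24 replicate 2 (adjusted p = 0.015). Stressed and well-watered libraries of these genes did not overlap at either time.

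A pair of called genes of the MtN3 (SWEET) family of sugar exporters, which release sugars across membranes, had low levels under stress, the lowest in WS24. Senescence-associated gene 29 (Gh_D04G1360) had 0.48, 0.715 and 0.318 CPM in WS48 libraries, against 3.61, 3.39 and 3.83 CPM in WW48 libraries. At 24 h it had 0, 0.0958 and 0 CPM in WS24 libraries, against 4.66, 8.78 and 4.23 CPM in WW24 libraries, and the WS24 value rests on 1 read. The ratio WS24/WW24 by reads, without WW24 replicate 2, was 0.0073, with an exact 95% counting interval of 0.000183 to 0.0419 that covers counting error only. Nodulin MtN3 family gene Gh_D02G0542 had 1.92, 1.43 and 2.33 CPM in WS48 libraries, against 10.8, 6.77 and 5.05 CPM in WW48 libraries, and at 24 h 0.187, 0.192 and 0.102 CPM in WS24 libraries, against 4.41, 18 and 7.17 CPM in WW24 libraries. Its difference was 3.09 ± 0.65 without WW24 replicate 2 (adjusted p = 0.0213), and WW24 replicate 2 was the highest library of all.

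Some positive calls were genes raised by stress at 48 h. Chitinase A (Gh_A08G0872), an enzyme that cleaves fungal wall chitin, had 76.2, 73.2 and 77.8 CPM in WS48 libraries, against 11.6, 12.9 and 11.8 CPM in WW48 libraries. At 24 h the values were 50.6, 52.6 and 48.1 CPM in WS24 libraries, against 18.8, 24.8 and 14.4 CPM in WW24 libraries. Every stressed library was above every well-watered one, WS48 above WS24 and WW48 below WW24, and the difference was 1.05 ± 0.17 without WW24 replicate 2 (adjusted p = 0.0108) and 1.25 ± 0.24 with all 12 libraries (adjusted p = 0.109). Zinc transporter 11 (Gh_A01G0705), called for stress at 48 h and not at 24 h, had 33, 33.9 and 34.7 CPM in WS48 libraries, against 9.07, 9.39 and 7.31 CPM in WW48 libraries, and at 24 h 17.8, 12.6 and 22.1 CPM in WS24 libraries, against 9.44, 12.4 and 10.03 CPM in WW24 libraries. Its difference was 1.16 ± 0.27 without WW24 replicate 2 (adjusted p = 0.0275). The peroxidase gene Gh_A12G2370 had 28.8, 26.3 and 24.8 CPM in WS48 libraries, against 2.58, 3.23 and 1.13 CPM in WW48 libraries. The 24 h levels were 7.01, 5.94 and 9.45 CPM in WS24 libraries, against 2.21, 13.2 and 1.75 CPM in WW24 libraries, so WW24 replicate 2 was above all WS24 libraries where its group mates were below them. Its difference was 1.68 ± 0.45 without that library and 3.14 ± 0.85 with it.

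Negative differences included genes raised by stress more at 24 h than at 48 h. Ribonuclease 1 (Gh_D12G1637), in Arabidopsis a secreted RNase induced by phosphate shortage and wounding, had 79.1, 65 and 73 CPM in WS48 libraries, against 7.52, 6.00 and 3.22 CPM in WW48 libraries. After 24 h there were 84.6, 88.3 and 95.2 CPM in WS24 libraries, against 0.613, 1.58 and 1.2 CPM in WW24 libraries. WS48 lay a little below WS24, whereas WW48 was above WW24 in every library. The log2 stress effect was 3.74 at 48 h and 6.57 at 24 h, and the difference was -2.82 ± 0.43 without WW24 replicate 2 (adjusted p = 0.0101) and -2.59 ± 0.42 with all 12 libraries (adjusted p = 0.072). Indoleacetic acid-induced protein 16 (Gh_D08G2503), a repressor of auxin response genes, had 8.35, 11.6 and 7.94 CPM in WS48 libraries, against 2.99, 4.92 and 4.0 CPM in WW48 libraries. The corresponding 24 h values were 5.98, 5.94 and 6.4 CPM in WS24 libraries, against 0.613, 0.288 and 0.276 CPM in WW24 libraries, and its difference was -2.55 ± 0.46 without WW24 replicate 2 (adjusted p = 0.0138) and -2.69 ± 0.43 with all 12 libraries (adjusted p = 0.072). WW24 lay below all 9 other libraries.

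Carbohydrate genes gave 1 positive call, the MtN3 gene above, and 3 negative calls among 33 tested members of sucrose, raffinose and trehalose metabolism, with a list median of −0.37 without WW24 replicate 2 and 0.05 with it, beside −0.04 and 0.01 for all genes tested. Its share of negative calls was near the 7.01% among genes with a function. Sucrose synthase 4 (Gh_A06G0716), which cleaves sucrose to UDP-glucose and fructose, had 21.6, 16.4 and 19.5 CPM in WS48 libraries, against 7.63, 9.85 and 7.4 CPM in WW48 libraries. In 24 h roots it had 31.9, 31.2 and 33.8 CPM in WS24 libraries, against 4.05, 6.62 and 3.22 CPM in WW24 libraries. Stress raised it at both times with no overlap, by 1.25 at 48 h and 3.18 at 24 h on the log2 scale, and the difference was -1.93 ± 0.24 without WW24 replicate 2 (adjusted p = 0.00462) and -1.61 ± 0.32 with all 12 libraries (adjusted p = 0.113). Galactinol synthase 2 (Gh_A13G0935), which makes the galactose donor of raffinose synthesis, had 15.6, 12.3 and 19.6 CPM in WS48 libraries, against 1.75, 5.08 and 1.92 CPM in WW48 libraries. At 24 h it had 27.2, 26.4 and 27.9 CPM in WS24 libraries, against 0.736, 4.6 and 1.47 CPM in WW24 libraries. Its difference was -2.0 ± 0.53 without WW24 replicate 2, -1.13 ± 0.68 with it, and 0.0047 with that library alone for WW24. Seed imbibition 2 (Gh_D12G1848), of the raffinose synthase family, had 5.09, 5.63 and 5.19 CPM in WS48 libraries, against 48.1, 116 and 61.2 CPM in WW48 libraries, and at 24 h 8.5, 5.17 and 5.28 CPM in WS24 libraries, against 19.4, 38 and 21.3 CPM in WW24 libraries. The WS48 and WS24 ranges overlapped, every WW48 library exceeded every WW24 library, and the difference was -2.11 ± 0.44 (adjusted p = 0.0203) without WW24 replicate 2. Starch branching enzyme 2.2 (Gh_D04G0999), the only call among 17 starch genes, had 10.8, 9.75 and 12.2 CPM in WS48 libraries, against 3.3, 4.92 and 4.7 CPM in WW48 libraries. At 24 h the values were 22.9, 20.4 and 19.4 CPM in WS24 libraries, against 2.94, 3.6 and 3.5 CPM in WW24 libraries, with a difference of -1.33 ± 0.27 (adjusted p = 0.0179) without WW24 replicate 2.

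**Figure D4:**
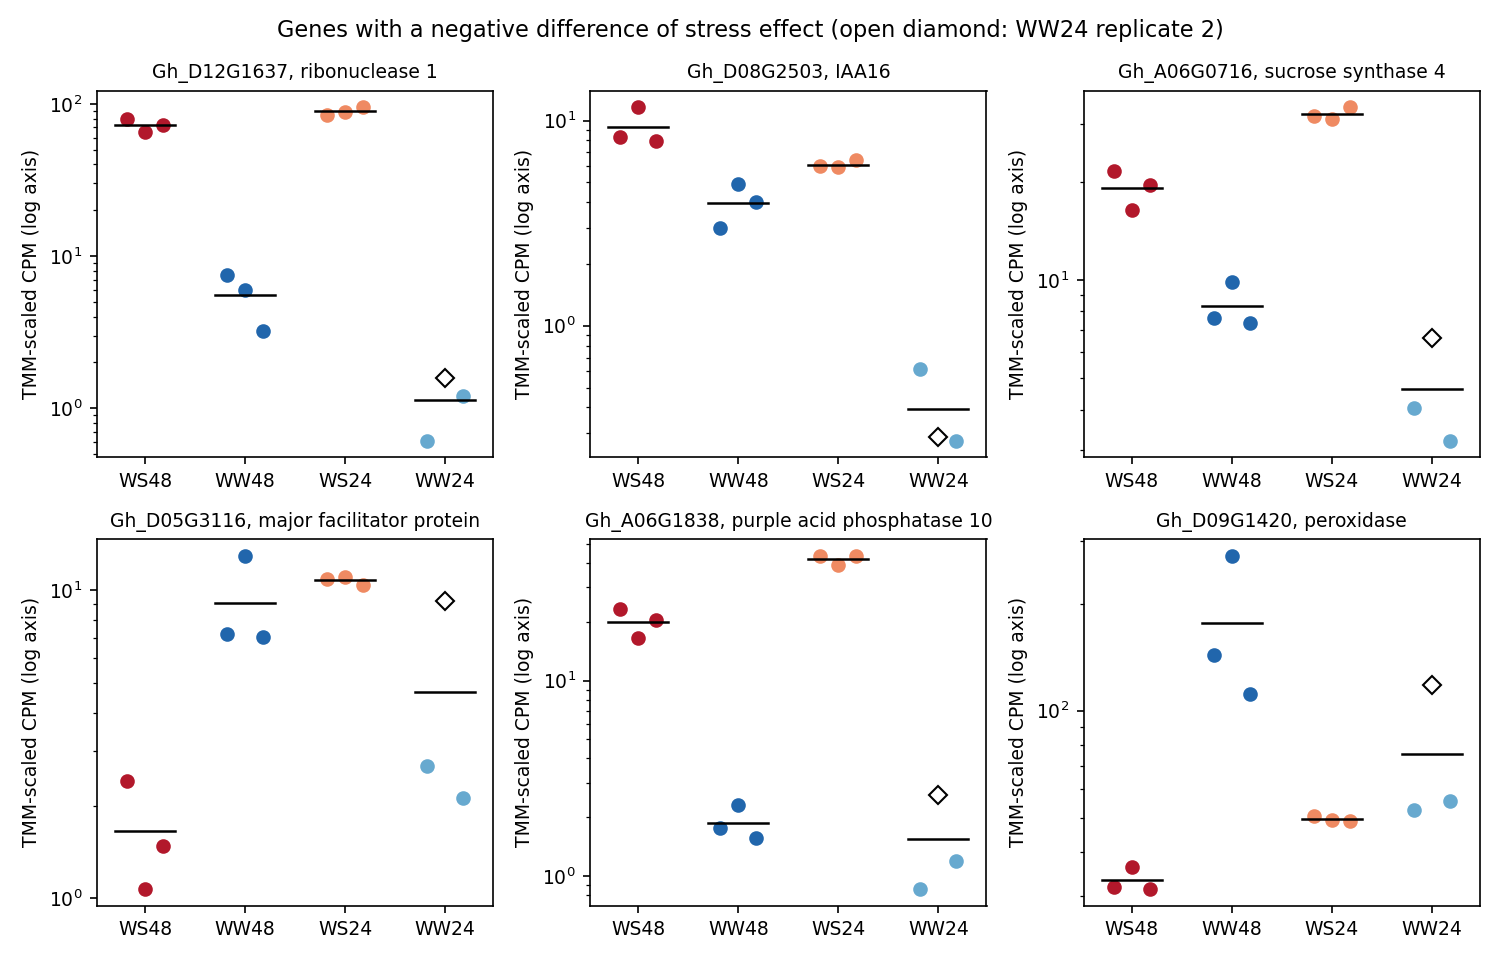
Level of 6 genes with a negative difference of stress effect in each library (y axis, TMM-scaled CPM, log axis) in WS48, WW48, WS24 and WW24, with the mean of 3 libraries as a bar and WW24 replicate 2 as an open diamond. Ribonuclease 1 held 65 to 95.2 CPM in all stressed libraries while WW48 lay above WW24, and in the major facilitator gene and the peroxidase WW24 replicate 2 lay above its group mates (9.21 CPM, against 2.70 and 2.12 CPM, in the major facilitator gene).

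Of 10 tested genes of phosphate scavenging and transport, 4 were called negative and 0 positive without WW24 replicate 2, beside 2.35% negative among all genes and 7.01% among genes with a function. Their list median was −0.64, and −0.78 with all libraries, beside −0.04 and 0.01 for all genes. With all libraries the 4 genes at an unadjusted p under 0.05 were all negative. The list holds both genes raised and genes lowered by stress. Purple acid phosphatases 10 and 17 release phosphate from organic esters and, in Arabidopsis, are induced when phosphate is short. Purple acid phosphatase 10 (Gh_A06G1838) had 23.3, 16.5 and 20.3 CPM in WS48 libraries, against 1.75, 2.31 and 1.57 CPM in WW48 libraries. The 24 h levels were 43.6, 39.3 and 43.6 CPM in WS24 libraries, against 0.858, 2.59 and 1.2 CPM in WW24 libraries. Every WS24 library was above every WS48 library, and the difference was -1.86 ± 0.33 without WW24 replicate 2 (adjusted p = 0.0139), -1.37 ± 0.41 with it and -0.55 with that library alone for WW24. Purple acid phosphatase 17 (Gh_D11G0018) had 4.22, 3.31 and 3.28 CPM in WS48 libraries, against 0.824, 0.923 and 0.87 CPM in WW48 libraries. After 24 h there were 8.97, 8.04 and 7.62 CPM in WS24 libraries, against 0.123, 0.288 and 0.644 CPM in WW24 libraries, and its difference was -2.22 ± 0.53 (adjusted p = 0.0307). The WW24 libraries held few reads of this gene. Its difference ran from -3.86 to -1.58 as each of the 11 libraries was left out in turn, and the call held in 6 of these fits. An acid phosphatase of the HAD IIIB subfamily (Gh_A02G0020) was lowered by stress, with 14.7, 18.3 and 14.4 CPM in WS48 libraries, against 54.1, 62.9 and 66.4 CPM in WW48 libraries. The corresponding 24 h values were 29.2, 28 and 28.6 CPM in WS24 libraries, against 52.5, 57.3 and 41.5 CPM in WW24 libraries, and its difference was -1.22 ± 0.20 (adjusted p = 0.0107). Phosphate 1 (Gh_A10G0984), an exporter that loads phosphate into the xylem, had 2.88, 3.22 and 2.44 CPM in WS48 libraries, against 15.8, 33.9 and 12.1 CPM in WW48 libraries. In 24 h roots it had 2.06, 2.68 and 2.64 CPM in WS24 libraries, against 4.9, 9.07 and 4.51 CPM in WW24 libraries, and its difference was -1.87 ± 0.52 (adjusted p = 0.0483). The count of 4 fell to 0 without WW24 replicate 1 and to 2 without WS24 replicate 1, WS24 replicate 2, WS24 replicate 3 or WS48 replicate 3.

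Class III peroxidases, secreted enzymes that couple phenolics or form reactive oxygen in the wall, gave 2 positive calls, Gh_A12G2370 above and Gh_A10G1627, and 3 negative of 23 tested. The shares were 1.32% positive and 2.35% negative among all genes, and 2.83% and 7.01% among genes with a function. The list median was −0.17 without WW24 replicate 2 and 0.05 with it. When 1 further library was left out, each count fell as low as 0. The largest negative difference was in Gh_A10G1317, with 0.192, 0.536 and 0.106 CPM in WS48 libraries, against 3.71, 3.23 and 2.44 CPM in WW48 libraries. At 24 h it had 0.561, 0.575 and 1.22 CPM in WS24 libraries, against 0.613, 0.719 and 0.46 CPM in WW24 libraries. The gene was high in WW48 alone, and its difference was -3.92 ± 0.79 (adjusted p = 0.0183) without WW24 replicate 2. Gh_D04G1506 had 0.864, 1.34 and 0.635 CPM in WS48 libraries, against 25.8, 19.4 and 16.6 CPM in WW48 libraries. At 24 h the values were 0.561, 0.862 and 0.914 CPM in WS24 libraries, against 2.33, 4.89 and 2.67 CPM in WW24 libraries, with a difference of -2.71 ± 0.48. Gh_D09G1420, the most abundant of them, had 32, 36.4 and 31.5 CPM in WS48 libraries, against 144, 273 and 111 CPM in WW48 libraries. The 24 h levels were 50.5, 49.1 and 48.8 CPM in WS24 libraries, against 52.5, 118 and 55.6 CPM in WW24 libraries. WW24 replicate 2 lay within the WW48 range while its group mates were just above WS24, and the difference was -2.25 ± 0.36 without WW24 replicate 2 (adjusted p = 0.0107) and -1.8 ± 0.48 with all 12 libraries (adjusted p = 0.196).

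Antioxidant and redox proteins gave 4 negative calls and 0 positive among 24, beside 2.35% negative among all genes and 7.01% among genes with a function. The list median was −0.61 without WW24 replicate 2 and −0.10 with it, beside −0.04 and 0.01 for all genes. Glutathione S-transferase TAU 8 (Gh_D09G1520), which joins glutathione to reactive compounds, had 152, 386 and 147 CPM in WS48 libraries, against 952, 1339 and 726 CPM in WW48 libraries. After 24 h there were 68.8, 52.7 and 76.9 CPM in WS24 libraries, against 43.9, 253 and 77.8 CPM in WW24 libraries. All WW48 libraries were above all others, WW24 replicate 2 was above its group mates, and the difference was -2.24 ± 0.53 without that library, -1.22 ± 0.77 with it and -0.18 with it alone for WW24. A glyoxalase I family gene (Gh_D10G0718), for detoxifying methylglyoxal, had 34.5, 30.0 and 28.5 CPM in WS48 libraries, against 127, 167 and 129.9 CPM in WW48 libraries. The corresponding 24 h values were 42.7, 36.5 and 42 CPM in WS24 libraries, against 89.2, 105 and 61.8 CPM in WW24 libraries, and its difference was -1.27 ± 0.23 (adjusted p = 0.0132). The other called members were metallothionein 2A and another glyoxalase I homolog, and the count fell to 0 without WW24 replicate 1 or WW24 replicate 3 and to 2 without WS24 replicate 1, WS24 replicate 3, WS48 replicate 1 or WS48 replicate 3.

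Metal transport genes gave 4 negative calls and 1 positive among 28, beside 2.35% negative and 1.32% positive among all genes and 7.01% and 2.83% among genes with a function. The median was −0.75 without WW24 replicate 2 and −0.11 with it, beside −0.04 and 0.01 for all genes. Of the negative calls 2 are the ZRT/IRT-like genes, for which no direction can be given. A vacuolar iron transporter gene (Gh_D04G1498) had 0.864, 0.536 and 0.424 CPM in WS48 libraries, against 8.76, 11.7 and 7.49 CPM in WW48 libraries. In 24 h roots it had 1.31, 1.15 and 1.12 CPM in WS24 libraries, against 2.57, 5.32 and 3.5 CPM in WW24 libraries, and its difference was -2.53 ± 0.44 without WW24 replicate 2 (adjusted p = 0.0128) and -2.25 ± 0.49 with all 12 libraries (adjusted p = 0.134). ZRT/IRT-like protein 2, a metal uptake transporter, had genes on A05 and D05 by their IDs, and their direction turned on 1 library. Gh_D05G0913 had 87.2, 78.4 and 81.4 CPM in WS48 libraries, against 7.93, 5.39 and 5.48 CPM in WW48 libraries. At 24 h it had 47.7, 44.2 and 57.9 CPM in WS24 libraries, against 0.368, 9.93 and 1.2 CPM in WW24 libraries. All stressed libraries were above all well-watered ones, WS48 was above WS24, and WW24 replicate 2 was above the WW48 range where its group mates were below it. The difference was -2.17 ± 0.40 (adjusted p = 0.0147) without WW24 replicate 2, -0.10 ± 0.83 with all libraries, and 1.39 (adjusted p = 0.0174) with WW24 replicate 2 alone. The A05 gene, Gh_A05G0795, had 46.6, 47.8 and 44.1 CPM in WS48 libraries, against 17.6, 14.2 and 11.7 CPM in WW48 libraries, and at 24 h 28.1, 23.7 and 31.5 CPM in WS24 libraries, against 2.82, 17.8 and 4.97 CPM in WW24 libraries. Its 3 values in the same order were -1.11, -0.06 and 1.06. The remaining negative call was a heavy metal transport/detoxification gene, and the count of 4 fell to 0 without WW24 replicate 1.

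**Figure D5:**
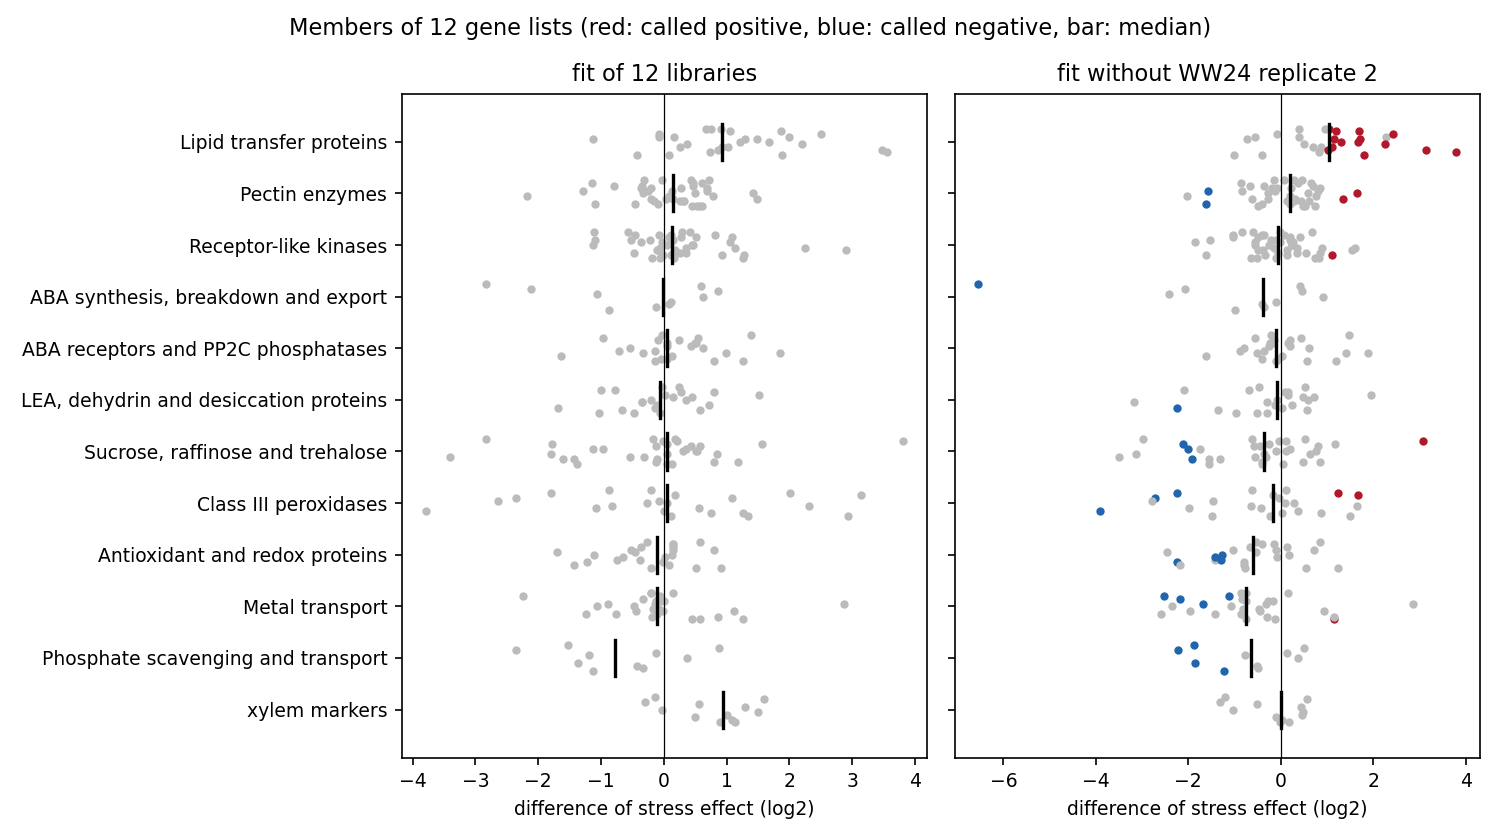
Difference of stress effect (x axis, log2; the panels have different ranges) of each tested member of 12 gene lists in the fit of 12 libraries (left) and without WW24 replicate 2 (right), with called members red (positive) or blue (negative), others grey and the list median as a bar. Lipid transfer proteins have their median at 0.93 and 1.05 in the panels from left to right, xylem markers at 0.95 and 0.0004, and the far left point of the right panel (−6.54) is a gene with no read in WW24 replicates 1 and 3.

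ABA accumulates at low water potential and acts through PYR/PYL receptors that inhibit PP2C phosphatases. Of 10 tested genes of its synthesis, breakdown and export, 1 was called negative without WW24 replicate 2, and of 25 receptors and PP2C phosphatases 0 were called. The shares were 1.32% positive and 2.35% negative among all genes, and 2.83% and 7.01% among genes with a function. Beside these shares, counts this small are no result about the 2 lists. The medians of the receptor and PP2C list were −0.09 without WW24 replicate 2 and 0.05 with it. The called gene, nine-cis-epoxycarotenoid dioxygenase 3 (Gh_A13G1311), codes for the enzyme that limits ABA synthesis and had 9.79, 9.12 and 10.5 CPM in WS48 libraries, against 0.618, 2.31 and 0.783 CPM in WW48 libraries. At 24 h the values were 9.06, 10.4 and 11.3 CPM in WS24 libraries, against 0, 0.576 and 0 CPM in WW24 libraries. The WS48 and WS24 ranges overlapped. WW24 replicates 1 and 3 held no read, so against 3 reads over both WS24 was at least 64.9-fold higher, and the fitted difference of -6.54 without WW24 replicate 2 depends on the prior count. With all 12 libraries it was -2.82 ± 0.94 (adjusted p = 0.283), and with WW24 replicate 2 alone -0.99. Highly ABA-induced PP2C gene 1 (Gh_A05G3590) had 14.2, 9.83 and 11.3 CPM in WS48 libraries, against 0.927, 0.462 and 0.609 CPM in WW48 libraries, and at 24 h 21.4, 12.6 and 17.3 CPM in WS24 libraries, against 0.49, 0.288 and 0.184 CPM in WW24 libraries. Its difference of -1.61 ± 0.66 did not pass (adjusted p = 0.146). The receptor gene PYR1-like 6 (Gh_A10G2142) had 2.69, 3.13 and 3.39 CPM in WS48 libraries, against 7.93, 6.62 and 9.84 CPM in WW48 libraries, and at 24 h 1.4, 1.53 and 2.23 CPM in WS24 libraries, against 12.6, 12.1 and 8.46 CPM in WW24 libraries. Its difference of 1.19 ± 0.36 did not pass either (adjusted p = 0.0647).

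All 16 genes in the list of ABA-responsive factors had a negative difference in both fits. Without WW24 replicate 2, 23759 of 45141 genes tested were negative, as were 987 of 1555 with a function. With all libraries these numbers were 21753 of 43938 and 801 of 1545. The list medians were −0.64 without WW24 replicate 2 and −0.78 with all libraries. Only 1 member was called, beside 2.35% negative calls among all genes and 7.01% among genes with a function. That gene, AFP2 (Gh_A12G1474), a binding protein of the ABA factor ABI5 and in Arabidopsis a negative regulator of ABA signalling, had 9.31, 7.06 and 7.62 CPM in WS48 libraries, against 2.06, 2.31 and 2.35 CPM in WW48 libraries. The 24 h levels were 14.6, 11.4 and 15.4 CPM in WS24 libraries, against 1.47, 3.45 and 0.92 CPM in WW24 libraries. Its difference was -1.71 ± 0.35 without WW24 replicate 2, -1.06 ± 0.48 with it and -0.15 with that library alone for WW24. Among 23 LEA, dehydrin and desiccation genes the only call was a caleosin-related gene (Gh_D09G0573), a lipid droplet protein, with 0.864, 1.16 and 0.53 CPM in WS48 libraries, against 13.3, 13.7 and 9.31 CPM in WW48 libraries. After 24 h there were 5.42, 5.27 and 4.47 CPM in WS24 libraries, against 15, 35.8 and 14.4 CPM in WW24 libraries, and its difference was -2.23 ± 0.34 without WW24 replicate 2 (adjusted p = 0.00993) and -1.69 ± 0.55 with it (adjusted p = 0.269).

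Among the genes called in opposite directions at 48 h and 24 h, a major facilitator gene was the only one with a function in the study's tables. This transporter gene (Gh_D05G3116) had 2.4, 1.07 and 1.48 CPM in WS48 libraries, against 7.21, 12.9 and 7.05 CPM in WW48 libraries. The corresponding 24 h values were 10.8, 11 and 10.4 CPM in WS24 libraries, against 2.7, 9.21 and 2.12 CPM in WW24 libraries. Stress lowered it at 48 h in every library. At 24 h all WS24 libraries were above WW24, but WW24 replicate 2 came close to them and level with WW48. The log2 stress effect was -2.39 at 48 h and 2.18 at 24 h without WW24 replicate 2, and 1.25 at 24 h, not called, with it. The difference was -4.58 ± 0.44 without WW24 replicate 2 (adjusted p = 0.00183) and -3.68 ± 0.68 with all 12 libraries (adjusted p = 0.106). ACT domain repeat 3 (Gh_D05G2283) had 0.576, 0.179 and 0.53 CPM in WS48 libraries, against 5.15, 21.7 and 9.75 CPM in WW48 libraries, and at 24 h 2.43, 2.01 and 1.73 CPM in WS24 libraries, against 5.64, 4.32 and 5.43 CPM in WW24 libraries. Its difference of -3.35 ± 0.77 (adjusted p = 0.0277) went with a WW48 group that itself spread widely.

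Without WW24 replicate 2, no call fell in several short lists tied to root growth under water stress, which at the shares of 1.32% positive and 2.35% negative among all genes is no result about them: proline metabolism (5 tested), expansins (12), aquaporins (9), sulfate transport and sulfotransferases (12), jasmonate (5), potassium and proton transport (6), MYB (14) and bHLH (14) factors and DUF640 proteins (7). Expansins, which loosen walls, had a median log2 stress effect of 1.87 at 48 h and 1.84 at 24 h without WW24 replicate 2, and proline genes 3.84 and 3.24. A missed threshold does not show that their effects were equal. Aquaporins, the channels for water, had a median difference of −0.05 without WW24 replicate 2 and 0.61 with it. Plasma membrane intrinsic protein 3 (Gh_A01G1406) had 572, 414 and 521 CPM in WS48 libraries, against 1167, 897 and 1079 CPM in WW48 libraries, and at 24 h 396, 397 and 424 CPM in WS24 libraries, against 1256, 1757 and 1136 CPM in WW24 libraries. WW24 replicate 2 was again the highest, and the difference was 0.51 ± 0.22 without it and 0.71 ± 0.27 with it. Laccase 11 (Gh_A13G0237), which polymerises lignin in vessels, had 7.49, 7.06 and 8.79 CPM in WS48 libraries, against 25.4, 18.9 and 15.4 CPM in WW48 libraries. In 24 h roots it had 4.95, 3.35 and 3.05 CPM in WS24 libraries, against 10.4, 60.6 and 17.8 CPM in WW24 libraries, and its difference was 0.56 ± 0.37 without WW24 replicate 2 and 1.6 ± 0.72 with it.

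The other lists had at most 2 calls a direction without WW24 replicate 2. Their called members are given by function or only as a count, a choice made after their values were seen. Pectin enzymes had 2 positive and 2 negative of 39, all pectin lyase-like genes, and defence genes 2 positive (chitinase A and a thaumatin gene) and 1 negative (another thaumatin gene) of 19. Auxin genes had 1 positive (a SAUR-like gene) and 1 negative (indoleacetic acid-induced protein 16) of 10, and lignin and phenolic coupling 2 negative, both O-methyltransferase genes, of 31. Single positive calls were an HSP20-like gene of 17 heat shock genes, glutamine dumper 1 of 15 nitrogen transport genes and a receptor serine/threonine kinase of 45 receptor-like kinases. Single negative calls were xyloglucan endotransglucosylase/hydrolase 9 of 12 xyloglucan enzymes, NAC domain containing protein 100 of 19 NAC factors, homeobox 7 of 19 homeodomain factors and 1 of 24 cytochrome P450 genes. Dividing cell markers had 1 positive (a histone) and 1 negative (beta-6 tubulin) call of 14, phloem markers 1 negative of 21, and markers of root hair (5), root cap (1) and photosynthetic tissue (4) none. Most list members were chosen by the study for a change in WS48 against both WW48 and WW24 in these libraries. Among all 1555 tested genes with a function 44 were positive (2.83%) and 109 negative (7.01%).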

How the data were processed

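RNA of cotton root tips was sequenced in 12 libraries. The authors aligned reads with HISAT2 (1.0) and deposited whole-number counts per gene, from HTSeq (0.6.1), as the submitters' processing notes name them; the strand setting of the counting is not stated. Counts of 70477 genes were used as deposited. Lines that name no gene, 31.22 to 39.08% of reads per library, stayed out, as did 12 columns of per-sample values not used here.

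One edgeR model (4.0.16, R 4.3.3) held a mean per group. Genes passed filterByExpr (minimum count 10, total 15), TMM scaled the libraries, and the quasi-likelihood test gave the difference of stress effects with Benjamini-Hochberg adjustment over all genes tested, first with 12 libraries and again without WW24 replicate 2. Standard errors (±) are the log2 value divided by the square root of F. CPM values are TMM-scaled. Where a group had no reads, fitted values depend on the prior count (0.125), and bounds use 3 reads. Alternatives were DESeq2 1.42.0, limma 3.58.1, other scalings and filters, the replicate block and each library left out. The fit was tested on simulated data in which no library stood apart. That test therefore does not show how the 12-library fit handles a library such as WW24 replicate 2.

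Functions come from the study's tables, which name 1766 genes. Lists were formed by words in them. Named genes, with a function and a mean of at least 1 CPM, were the 10 per direction of lowest p with a log2 difference of at least 1 (12 libraries), the 10 per direction with the largest called difference (11 libraries), the 3 of lowest p per list, and 2 per direction with no function; these sets are given in part, as counts and ranges elsewhere. Called lipid transfer genes beyond the 3, the ZRT/IRT-like pair and some called members of small lists were named after their values were seen. Members and lists were chosen with earlier results of these data known. No sequences were printed.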

Additional observations from a re-analysis of the deposited data

Results flagged for a closer look

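For 50 genes described here the stress effect at 48 h differed from that at 24 h by the edgeR test of the difference itself without WW24 replicate 2 (adjusted p of at most 0.05), and each is given below with that difference on the log2 scale. With all 12 libraries none of them passed.

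Lipid transfer protein genes had positive differences: Gh_A11G0233 1.1, Gh_A11G0234 1.05, Gh_A11G0235 1.71, Gh_A11G0236 3.14, Gh_A11G0237 1.68, Gh_A11G0239 1.67, Gh_D11G0247 1.02, Gh_D11G0248 1.2, Gh_D11G0249 1.32, Gh_D11G0250 3.79, Gh_D11G0251 2.42, Gh_D11G0252 2.25, Gh_D11G0254 1.81 and Gh_D13G1963 1.15. The other positive differences were Gh_A11G1551 1.73, Gh_D11G1706 1.36, Gh_A11G0857 1.41, Gh_A07G0920 1.52, Gh_D04G1360 3.85, Gh_D02G0542 3.09, Gh_A08G0872 1.05, Gh_A01G0705 1.16, Gh_A12G2370 1.68, Gh_D06G0280 1.77 and Gh_A06G1899 1.81.

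Negative differences in genes of carbohydrates, phosphate, metals and redox were Gh_A06G0716 -1.93, Gh_D04G0999 -1.33, Gh_D12G1848 -2.11, Gh_A13G0935 -2.0, Gh_A02G0020 -1.22, Gh_D11G0018 -2.22, Gh_A06G1838 -1.86, Gh_A10G0984 -1.87, Gh_D04G1498 -2.53, Gh_A10G1317 -3.92, Gh_D04G1506 -2.71, Gh_D09G1420 -2.25, Gh_D10G0718 -1.27 and Gh_D09G1520 -2.24. The ZRT/IRT-like genes Gh_A05G0795 (-1.11) and Gh_D05G0913 (-2.17) were positive, 1.06 and 1.39, with WW24 replicate 2 alone for WW24 (edgeR adjusted p = 0.0394 and 0.0174), so no direction can be given for them. The other negative differences were Gh_D12G1637 -2.82, Gh_D08G2503 -2.55, Gh_D05G3116 -4.58, Gh_D05G2283 -3.35, Gh_D09G0573 -2.23, Gh_A13G1311 -6.54, Gh_A12G1474 -1.71, Gh_D06G0837 -2.88 and Gh_D07G0360 -2.55. Of the 50, 7 were called whichever further library was left out.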

How the results depend on the processing

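With 3 libraries a group and 4 groups in each difference, the 12-library calls turned on WW24 replicate 2. Leaving out each library in turn gave 0 to 598 positive and 0 to 1059 negative calls with all 12 libraries at the start, and 1772 to 5761 positive and 1905 to 5871 negative genes at an unadjusted p under 0.05. From the 11 libraries left without WW24 replicate 2 it gave 10 to 1183 positive and 11 to 1826 negative calls, and 1 to 15 positive calls among lipid transfer proteins. What sets WW24 replicate 2 apart was not tested. Positive and negative calls with all 12 libraries were 4 and 5 with library size alone, 15 and 7 with no filter, 192 and 211 with DESeq2, 180 and 256 with edgeR's likelihood-ratio test, 541 and 1384 with limma-voom quality weights, and 34 and 14 at an adjusted p of 0.1. They stayed at 0 with DESeq2 size factors in edgeR, the authors' filter, robust fitting and limma-voom. With WW24 replicate 2 alone for WW24, chosen after seeing the data, they were 1816 and 973, and the unadjusted counts 5793 and 4992. The unadjusted counts were also 6036 and 6288 with quality weights, and 1424 positive with library size alone, which moved the median of all genes by -0.11 on the log2 scale. Without WW24 replicate 2, negative calls were 1843 with the likelihood-ratio test, 654 with limma-voom and 1954 at an adjusted p of 0.1. An adjusted p of 0.01 left 33 positive and 54 negative, and no minimum fold change gave 1631 positive. Whether the replicate numbers pair the libraries is not stated and could not be settled from the counts. Of 18 same-numbered pairs, 6 correlated above 0.1 (range -0.18 to 0.38), and 5 of 12 libraries correlated best with their own number. With the replicate block there were 0 calls with all 12 libraries, and 400 positive and 699 negative without WW24 replicate 2. Turned directions came from the 12-library fit. Gh_A05G0795 was 0.35, 0.23, 0.04 and 0.13 without WW24 replicate 1, WW24 replicate 3, WS24 replicate 3 and WW48 replicate 1 in turn (lowest -1.11), and 1.06 with WW24 replicate 2 alone. Gh_D05G0913 was 0.44, 0.39, 0.03 and 0.14 without the same libraries (lowest -2.17), 0.026 with DESeq2, and 1.39 with WW24 replicate 2 alone. Gh_A13G0935 was 0.0047 with that library alone. The cause of these changes was not tested.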

Other observations

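Genes with no function in the study's tables were among those with the lowest p-values of the difference. Gh_A06G1899 had 75.9, 64.9 and 72.2 CPM in WS48 libraries, against 95.5, 81.9 and 84.3 CPM in WW48 libraries, and at 24 h 37, 45.4 and 38.1 CPM in WS24 libraries, against 186, 318 and 158 CPM in WW24 libraries. Its difference was 1.81 ± 0.18 without WW24 replicate 2 (adjusted p = 0.00183) and 2.16 ± 0.31 with all 12 libraries (adjusted p = 0.0664). Gh_D06G0280 had 14.3, 13.4 and 11.7 CPM in WS48 libraries, against 19.6, 19.4 and 22.9 CPM in WW48 libraries, and at 24 h 5.33, 6.61 and 6.4 CPM in WS24 libraries, against 33.3, 49.5 and 31.9 CPM in WW24 libraries. Its difference was 1.77 ± 0.20 without WW24 replicate 2 (adjusted p = 0.00317) and 1.99 ± 0.26 with all 12 libraries (adjusted p = 0.0664). In both of these genes WS24 was the lowest group and WW24 the highest. Gh_D06G0837 had 3.84, 2.32 and 3.18 CPM in WS48 libraries, against 11.6, 21.5 and 12.4 CPM in WW48 libraries, and at 24 h 3.64, 3.73 and 4.77 CPM in WS24 libraries, against 2.45, 3.17 and 2.76 CPM in WW24 libraries. Its difference was -2.88 ± 0.41 without WW24 replicate 2 (adjusted p = 0.00794) and -2.81 ± 0.40 with all 12 libraries (adjusted p = 0.0664). Here WW48 alone stood high. Gh_D07G0360 had 3.74, 3.67 and 4.13 CPM in WS48 libraries, against 6.08, 5.54 and 4.18 CPM in WW48 libraries, and at 24 h 4.95, 5.17 and 4.98 CPM in WS24 libraries, against 1.1, 1.87 and 1.2 CPM in WW24 libraries. Its difference was -2.55 ± 0.32 without WW24 replicate 2 (adjusted p = 0.00568) and -2.32 ± 0.34 with all 12 libraries (adjusted p = 0.0664). In the last gene WW24 alone stood low. With WW24 replicate 2 alone for WW24, a setting chosen after seeing the data, the differences were 2.71 for Gh_A06G1899, 2.38 for Gh_D06G0280, -2.59 for Gh_D06G0837 and -1.85 for Gh_D07G0360.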
